A study of Mus musculus with 6 samples.

Results

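Oxidative phosphorylation is described here through the 108 genes, of 21362 listed, that carry a name of its respiratory complexes or the ATP synthase. They were chosen by name, with earlier results of these data known. The rule took all names beginning with Nduf, Uqcr, Cox4 to Cox8 or Atp5. It also took the genes Sdha, Sdhb, Sdhc and Sdhd, and the 13 protein-coding genes of mitochondrial DNA. Of the 108, 95 are nuclear and 13 mitochondrially encoded. The nuclear genes comprise 82 that encode subunits, their alternative isoforms or associated proteins, 8 assembly factors of complex I and 5 paralogues or pseudogenes. RNA sequencing was done on 6 libraries of mouse CD4+ T cells, from a series on regulatory T cells given sorafenib, an inhibitor of several protein kinases, and cells not given it. The labels describe all 6 libraries alike, as total RNA of that cell type, with a running number. They name no treatment, time, strain or age for any library, and no sort or gate for regulatory T cells. No groups were therefore formed, nothing was tested between conditions, and each library is reported on its own as library 1 to 6. Where 6 values follow each other, they run from library 1 to library 6.

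The respiratory chain of the inner mitochondrial membrane passes electrons from NADH and succinate to oxygen. Complexes I, III and IV pump protons while they do so, and complex V, the ATP synthase, lets the protons flow back to make ATP. Complex II is encoded in the nucleus entirely, whereas the other complexes combine nuclear subunits, made in the cytosol and imported, with a core encoded by mitochondrial DNA. Activated T cells raise glycolysis, while respiration is known to matter for memory and regulatory T cells.

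Each library had between 32435799 and 36316162 counted reads. Levels are given as CPM, counts per 1000000 reads of a library, scaled by TMM, a method that corrects for composition. A gene's range divides its highest library by its lowest, after 2 reads are added on the log2 scale. T helper markers were present, with all 8 listed genes above a mean of 1 CPM and a summed level of 2466 to 3042 CPM. Foxp3, the defining factor of regulatory T cells, stood at 7.37, 7.66, 7.86, 11.9, 13.4 and 11.2 CPM. Markers of myeloid cells, NK cells, erythroid cells and hepatocytes had 0 genes above a mean of 1 CPM. The defining hepatocyte gene Alb had a highest level of 0.145 CPM, while Afp, also on that list, stood at 0.708, 0.289, 0.860, 0.923, 1.52 and 0.759 CPM. Summed hepatocyte markers reached at most 1.72 CPM. The summed B cell markers reached at most 7.16 CPM, the CD8 markers 10.1 CPM and the fibroblast markers 2.01 CPM. The CD8 sum was mostly Cd8b1, at 8.15 to 9.57 CPM, while Cd8a lay within 0.231 to 0.661 CPM. The fibroblast sum was mostly Col1a1, at 1.24 to 1.89 CPM, while Col1a2 and Dcn reached at most 0.0287 and 0.115 CPM. In bulk RNA, fewer cells with a transcript and less of it per cell cannot be told apart. Nothing in the labels tells whether separate mice or cultures gave the 6 libraries.

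The 108 genes together took 2.64%, 2.54%, 2.62%, 3.11%, 3.04% and 3.08% of counted reads in libraries 1 to 6. The share was lowest in library 2 and highest in library 4, with 95% Clopper-Pearson intervals of 2.53% to 2.54% and 3.10% to 3.11%. These and all other intervals cover counting error only and leave out variation between samples. They are too narrow where reads amplified by PCR are not independent molecules. Most of those reads were mitochondrially encoded, between 1.90% and 2.45% of all counts, against 0.621% to 0.673% for the 95 nuclear genes. Of the 108 genes, 103 had a mean of at least 1 CPM. ATP8, Ndufa4l2, Ndufb4b, Ndufb4c and Ndufs6b did not.

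Few of the 103 genes differed widely between libraries. The range reached 1.5-fold in 17 of them, or 16.5%, where 27.6% of all 11516 genes past the same filter did. It reached 2-fold in 3, or 2.91%, against 10.5% of all genes. The median gene of oxidative phosphorylation ranged 1.21-fold and the median of all genes 1.29-fold. These genes are more abundant than most, and of all genes averaging 10 CPM or more, 13.5% ranged 1.5-fold and 3.33% ranged 2-fold, against 6 and 2 of the 90 members at that level. Of 12 mitochondrially encoded genes past the filter, 7 ranged 1.5-fold or more, of the 82 nuclear subunit genes 4, all 4 of them alternative isoforms of complex IV, and of the 8 assembly factors 5. The remaining gene of the 17 was the pseudogene Ndufab1-ps. The mitochondrial count was 3 of 12 without library 2, no more than the 25.1% of all genes that ranged 1.5-fold there. The nuclear subunit count was 2 without library 5 and 8 with plain total counts, beside 25.5% and 30.8% of all genes. The assembly factor count was 2 without library 3 and 3 without library 6, beside 25.7% and 24.8% of all genes. The 95% counting intervals of the highest and the lowest library did not overlap in 90 of the 103 genes, or 87.4%, where all genes had 85%. In 5 of the 103, 1 library stood apart from the other 5 by Dixon's 95% critical value for 6 values, where 2.56% of all genes did.

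**Figure D1:**
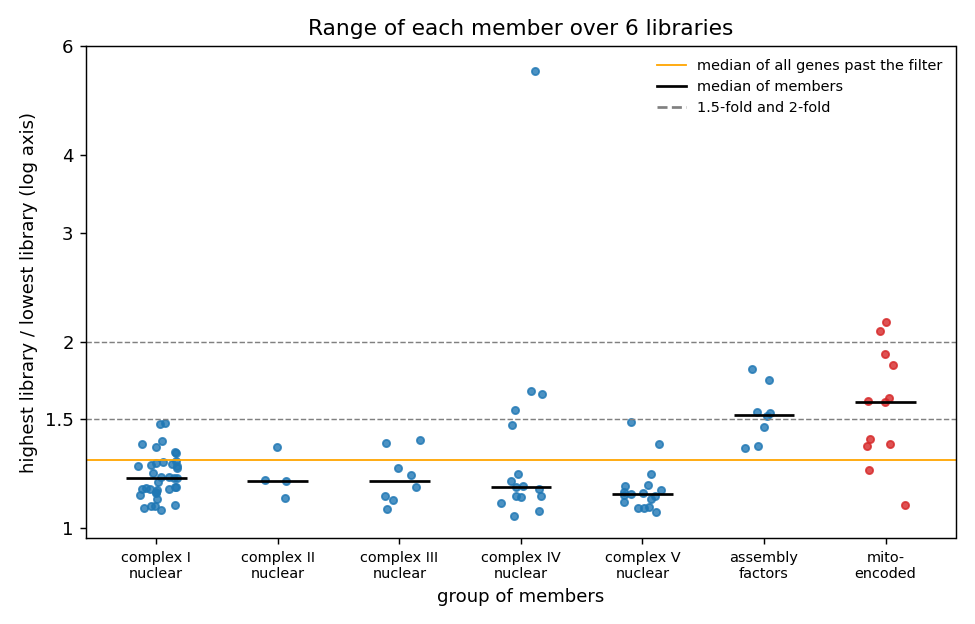
The fold range of each gene past the filter, its highest library divided by its lowest on a log2 axis, by complex. Black bars are group medians, the orange line is the median of all genes and dashed lines mark 1.5-fold and 2-fold. Nuclear subunits lie mostly below the orange line, the assembly factors and mitochondrially encoded genes mostly above it, and Cox6a2 of complex IV stands highest at 5.46-fold.

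Mitochondrially encoded transcripts differed by orders of magnitude among themselves. COX1, the catalytic subunit of complex IV that binds oxygen, had a median of 9709 FPKM, the deposited level per length of gene. CYTB, the core of complex III that handles the quinone, had 1850.0 FPKM. Of the complex I subunits, ND1, next to the quinone pocket, had 1444 FPKM, and ND5, ND2 and ND4, which form the proton channels, had 915, 762 and 671 FPKM. These 6 genes stood far above the other 7. COX2, which receives electrons from cytochrome c, had 62.5 FPKM, ATP6, the proton channel of complex V, 51.4, and ND6, a membrane subunit of complex I encoded on the opposite strand, 37.1. COX3, the third core subunit of complex IV, had 29.4 FPKM, ND4L 16.3, ND3 11.9 and ATP8, a small subunit of complex V, 4.597. The 6 libraries kept these levels apart, since the lowest FPKM of ND4 in any library, 577, exceeded the highest of COX2, 75.2. The neighbours COX2 and ATP6 overlapped between libraries, with 42.5 to 75.2 and 41.2 to 62.5 FPKM, as did ND6 and COX3, with 29.5 to 68.6 and 22.2 to 38.6 FPKM.

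Sequence shared with nuclear copies varied between these genes. The nuclear genome holds old insertions of mitochondrial DNA, and a read from an identical stretch matches both places. Of the 50-base windows of each gene in GENCODE vM21, an annotation of the assembly GRCm38, 100% of those in COX2 were found unchanged in an annotated nuclear transcript, 99.9% in COX3, 99.5% in ATP6, 98.8% in ND4L and 98.0% in ND3. These 5 genes were all among the 7 with low levels. The shares were 62.2% in ND4, 51.1% in COX1, 8.19% in ND2 and 7.61% in ND5, and 0 windows were shared in ND1, CYTB, ND6 and ATP8. COX1 was the most abundant with over 50% of its windows shared, and ND6 and ATP8 were low without a shared window. ATP8 overlaps another mitochondrial coding gene over 43 of its 204 bases. Gm28661, Gm28437, Gm10925, Gm10222, Gm28438 and Gm28439, pseudogenes on chromosome 1, held most windows that COX2, COX3, ATP6, ND4L, ND3 and ND4 shared. How the authors treated reads with several matches or overlapping genes is not given in the sources used here, nor is the strand setting, which would separate ND6 from transcripts of the other strand. The part of shared sequence in these levels was not tested, so levels are compared below for each gene between libraries.

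The next 4 stretches show such identity, from positions counted along each coding gene in GENCODE, with capitals for bases inside a window that also occurs in a nuclear transcript. The first 2 lie at the middle of COX2 and COX3 and are shared throughout, the third is in ND4, where the shared part ends after base 876, and the fourth, from the middle of CYTB, is not shared.
COX2, bases 313 to 372: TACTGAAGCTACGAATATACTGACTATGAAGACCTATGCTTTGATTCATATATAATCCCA
COX3, bases 363 to 422: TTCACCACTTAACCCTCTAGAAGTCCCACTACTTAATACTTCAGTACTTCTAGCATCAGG
ND4, bases 817 to 936: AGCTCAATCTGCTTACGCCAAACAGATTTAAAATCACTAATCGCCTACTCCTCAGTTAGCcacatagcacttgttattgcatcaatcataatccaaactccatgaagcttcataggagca
CYTB, bases 543 to 602: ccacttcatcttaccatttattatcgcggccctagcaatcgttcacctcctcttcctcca

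**Figure D2:**
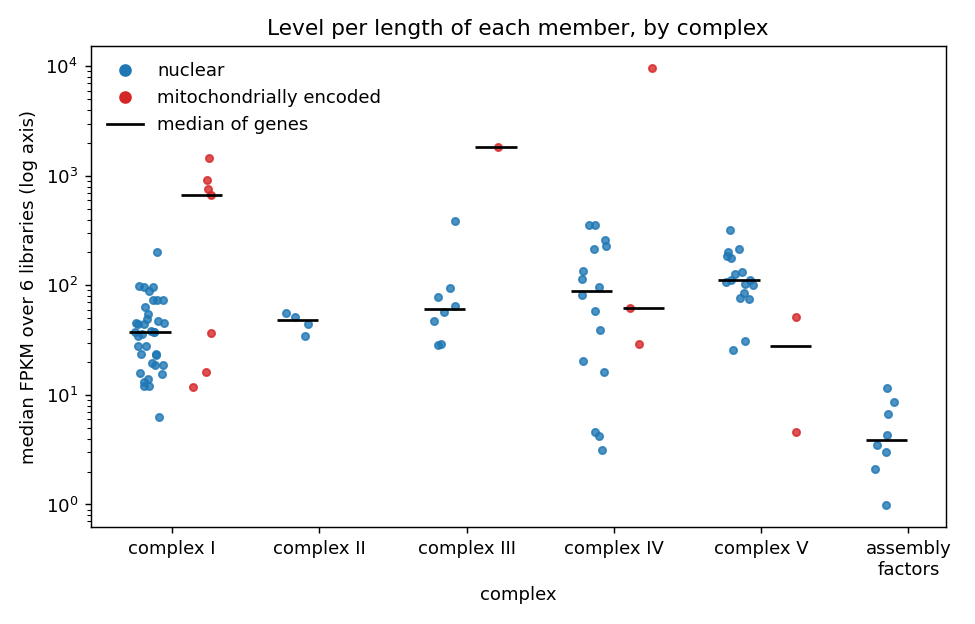
Median FPKM over the 6 libraries of every gene, on a log axis, by complex, with nuclear genes in blue and mitochondrially encoded genes in red. Black bars are the medians of the genes shown. The mitochondrially encoded genes of complexes I and IV spread from 11.9 to 9709 FPKM, and the assembly factors lie below nearly all nuclear subunits.

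Between libraries, most mitochondrially encoded transcripts were lowest in library 2. COX1 stood at 14826, 14135, 14154, 15312, 15133 and 15414 CPM and ranged 1.09-fold, the narrowest of the 13, or 1.18-fold with plain total counts. CYTB stood at 1919.5, 1797, 1909, 2302, 2287 and 2454 CPM, a range of 1.37-fold. Libraries 4, 5 and 6 were each above libraries 1, 2 and 3 for both genes, with no overlap of 95% counting intervals between library 2 and library 6. ND1 stood at 1170.4, 1127, 1271, 1529, 1471 and 1502 CPM and ranged 1.36-fold. ND4 stood at 892, 829, 886, 984, 951 and 1028 CPM and ranged 1.24-fold. ND5, the farthest proton channel of complex I, ranged 1.60-fold, with 1413, 1276, 1433, 2038, 1869 and 1907 CPM. The same 3 libraries were the highest for each of these complex I genes. ND2 had another shape, with 708, 553, 742, 1151, 864 and 837 CPM. Library 4 was well above the other 5, library 2 was lowest, and the range was 2.08-fold.

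The low transcripts followed the same order only in part. ND6 stood at 16.8, 16.0, 17.4, 20.8, 30.3 and 34.4 CPM, a range of 2.15-fold, and libraries 5 and 6 were set apart from the other 4. COX2 stood at 37.1, 30.3, 37.4, 49.2, 49.3 and 47.8 CPM and ranged 1.62-fold, and COX3 stood at 19.0, 18.3, 18.04, 26.8, 29.0 and 28.5 CPM and ranged 1.61-fold. Library 2 or library 3 was lowest for this pair of complex IV genes, and libraries 4, 5 and 6 were each above the other 3. ATP6 stood at 35.4, 29.3, 35.7, 35.3, 40.8 and 34.4 CPM, with library 5 highest. The 95% intervals of libraries 1, 3, 4 and 6 overlapped. Library 6 was below libraries 1 and 3 in CPM but above them in FPKM. ND4L stood at 5.28, 2.95, 3.84, 4.98, 4.43 and 5.45 CPM and ND3 at 5.08, 2.63, 3.76, 4.93, 4.11 and 3.85 CPM. For ND3 library 1 was highest, with a 95% interval of 4.32 to 5.94 CPM against 2.12 to 3.23 CPM in library 2, while with plain total counts library 4 was highest. ATP8 was counted 13 to 50 times per library, at 0.837, 0.376, 1.12, 1.03, 1.44 and 0.731 CPM, with library 2 lowest. Library 2 was lowest for 11 of the 12 genes past the filter, whereas it was lowest for 16.4% of all genes, and library 3 was lowest for COX3. COX1, which is among the 11, was nearly as low in library 3, which was its lowest with DESeq2 size factors. Library 6 was highest for 5 of the 12, libraries 4 and 5 for 3 each and library 1 for 1, against 21.2%, 16.5%, 14.3% and 18.7% of all genes. Mitochondrial DNA is transcribed as long precursors, so these genes are not independent of each other. The summed markers of regulatory T cells, Foxp3, Il2ra, Ikzf2 and Ctla4, stood at 3858, 3792, 3759.6, 2385, 2423 and 2622 CPM, and those of B cells, none of them above 3.80 CPM, at 4.06, 5.15, 5.02, 6.99, 7.16 and 6.72 CPM. In libraries 4, 5 and 6 the first sum was lower than in libraries 1, 2 and 3 and the second higher. Genes of the first list went different ways: Il2ra stood at 2301, 2201, 2178, 1556, 1613 and 1778 CPM and Ctla4 at 1526, 1559, 1548, 791, 771 and 809 CPM, both lower in libraries 4, 5 and 6, whereas Foxp3 was higher there and Ikzf2 lay within 23.4 to 26.5 CPM. The summed T helper markers stood at 3042, 2967, 2883, 2466, 2475 and 2532 CPM, also lower in libraries 4, 5 and 6. The part of these markers in the mitochondrial levels was not tested.

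**Figure D3:**
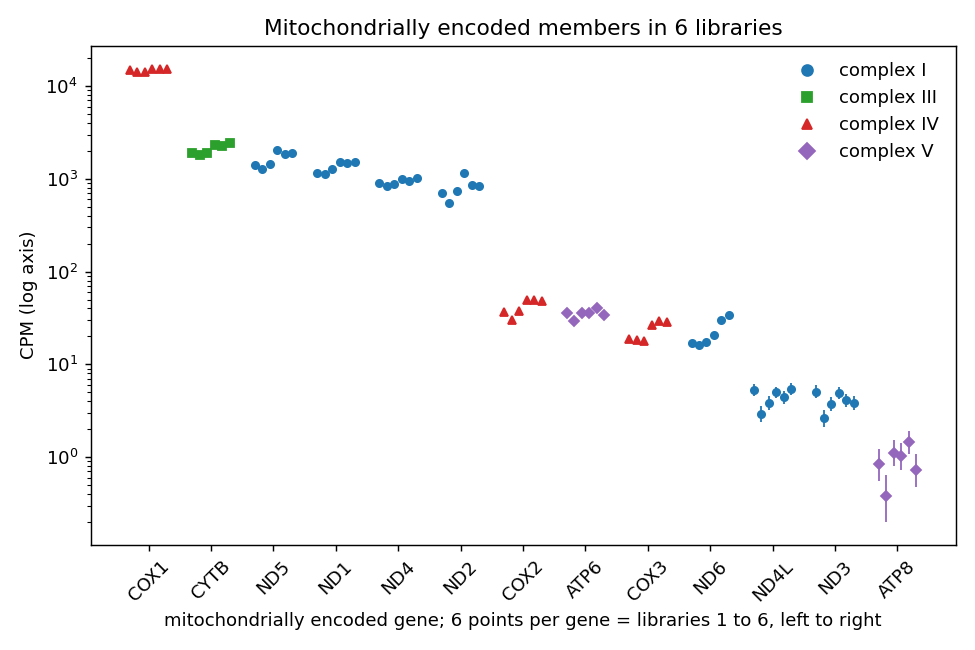
CPM of the 13 mitochondrially encoded genes on a log axis, with 6 points per gene for libraries 1 to 6 from left to right, 95% counting intervals as bars and complexes by colour and shape. The second point, library 2, is the lowest in 12 of the 13 genes.

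The makeup of the mitochondrial reads shifted as well. COX1 made up 70.4%, 71.3%, 69.0%, 65.3%, 66.6% and 66.2% of them. Its share was highest in library 2 and lowest in library 4, with 95% Clopper-Pearson intervals of 71.2% to 71.4% and 65.2% to 65.4%. The other 12 genes summed to 5683 CPM in library 2 and 8147 CPM in library 4. Set against their nuclear partners, the complex I genes of mitochondrial DNA gave 2.78, 2.45, 2.81, 3.95, 3.50 and 3.50 reads per read of the 37 nuclear subunit genes. That ratio is free of the scaling between libraries, and library 4 was highest and library 2 lowest. For complex III the ratio of CYTB to nuclear reads ran from 2.47 in library 2 to 3.58 in library 6. For complex IV it ran only from 9.90 in library 2 to 11.6 in library 4. For complex V it was 0.0144, 0.0115, 0.0144, 0.0146, 0.0168 and 0.0137, with library 2 lowest and library 5 highest. The part of shared sequence in these ratios was not tested, and 99.5% of the windows of ATP6 were shared. Each ratio is therefore compared between libraries and not with those of other complexes.

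Nuclear subunits of complex I, the NADH dehydrogenase, were measured for all 37 genes, at medians of 6.32 to 201 FPKM. Ranges lay between 1.07-fold and 1.48-fold. Of the 37, 0 reached 1.5-fold, where 27.6% of all genes did, and 13.5% of those averaging 10 CPM or more. With plain total counts 2 reached it, where 30.8% of all genes did. Ndufv1, which binds NADH and the flavin, stood at 35.6, 37.6, 37.7, 39.9, 38.1 and 41.4 CPM. Ndufs1, the largest subunit, which carries iron-sulfur clusters, stood at 42.8, 41.9, 42.3, 45.7, 47.8 and 47.6 CPM. Both varied little, and library 6 or library 5 was highest. Ndufa6, an accessory subunit with the highest level per length at 201 FPKM, stood at 106, 113, 113, 89.1, 96.6 and 94.2 CPM, with the top values in libraries 2 and 3 and the lowest in library 4. Ndufb6, an accessory subunit of the membrane arm, had the widest range, 1.48-fold, with 18.1, 24.5, 24.4, 26.7, 24.8 and 24.9 CPM. Its range came from library 1 alone, and the other 5 libraries lay within 24.4 to 26.7 CPM. Library 6 was highest for 12 of the 37, beside 21.2% of all genes, and library 1 lowest for 11, beside 22.6% of all genes.

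Values follow for further core subunits of complex I. Ndufs8, which carries iron-sulfur clusters, stood at 14.6, 18.6, 17.8, 21.4, 20.1 and 21.6 CPM, low in library 1, and ranged 1.47-fold. Ndufs7, which carries the last cluster before the quinone, stood at 16.6, 19.8, 19.7, 21.3, 22.1 and 21.7 CPM and was also lowest in library 1. Ndufs3 and Ndufv2 lay within 40.3 to 46.7 CPM and 57.1 to 66.7 CPM. The accessory subunits went different ways. Ndufv3, a small subunit next to the NADH site, stood at 172, 179, 171, 135, 132 and 135 CPM, and Ndufb11 at 76.5, 70.3, 76.3, 60.6, 63.1 and 63.5 CPM, both lower in libraries 4, 5 and 6. Ndufb4, in contrast, stood at 10.1, 10.9, 10.96, 12.9, 13.1 and 13.8 CPM, higher in those 3 libraries. Ndufs6, needed late in assembly of the NADH arm, stood at 17.4, 16.3, 15.9, 18.1, 17.6 and 22.0 CPM, with library 6 alone high. Ndufa13, Ndufa2, Ndufa5, Ndufa9, Ndufb2, Ndufb3, Ndufs4 and Ndufs5 had overlapping counting intervals in their highest and lowest libraries, at levels from 8.14 CPM of Ndufa5 to 57.8 CPM of Ndufa13.

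Complex II, the succinate dehydrogenase that also serves the citric acid cycle, had 4 genes at 34.7 to 56.6 FPKM. A range of 1.5-fold was reached by 0 of the 4, beside 27.6% of all genes and 13.5% of those averaging 10 CPM or more. Sdha, the flavoprotein that oxidises succinate, stood at 149.8, 151, 153, 141, 151 and 158 CPM. Sdhb, the iron-sulfur subunit, stood at 33.0, 33.7, 33.2, 41.4, 40.7 and 44.6 CPM and had the widest range of the 4, 1.35-fold. Libraries 4, 5 and 6 were each above libraries 1, 2 and 3 for Sdhb. The membrane anchors differed from it, with Sdhc at 49.0, 57.8, 58.7, 56.2, 55.6 and 55.6 CPM and Sdhd at 77.7, 74.6, 74.1, 65.3, 70.7 and 72.8 CPM. Sdhc was low in library 1 alone, and Sdhd was lowest in library 4 and highest in library 1, or in library 6 with plain total counts.

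Complex III, which passes electrons from quinol to cytochrome c, had 8 nuclear genes. A 1.5-fold range was reached by 0 of them, beside 27.6% of all genes and 13.5% of those averaging 10 CPM or more. Uqcrh, the hinge protein, had the highest level per length of all nuclear genes described here, 391 FPKM, and the widest range of the 8, 1.39-fold, or 1.27-fold with plain total counts. It stood at 246, 244, 236, 185, 177 and 193 CPM, with libraries 1, 2 and 3 each above libraries 4, 5 and 6, the reverse of CYTB in the same complex. Uqcrfs1, the Rieske iron-sulfur protein, stood at 102, 101, 104, 104, 100.4 and 108 CPM and ranged 1.07-fold. Uqcrc1, a core protein facing the matrix, stood at 71.8, 74.5, 76.8, 77.6, 77.8 and 79.7 CPM. Neither of the latter showed a library far from the rest. Uqcrc2, the other core protein, stood at 177, 191, 174, 172, 169 and 176 CPM, highest in library 2. Uqcr11, a small accessory subunit, lay within 11.5 to 15.7 CPM and ranged 1.37-fold, highest in library 6. Uqcrb, Uqcrq and Uqcr10 lay within 27.4 to 34.3 CPM, 40.2 to 46.8 CPM and 29.1 to 35.5 CPM.

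Complex IV, cytochrome c oxidase, had 16 nuclear genes, 12 of them widely expressed and 4 isoforms known from few tissues. Cox7c, a small structural subunit, led with 359 FPKM and stood at 164, 178, 169, 155, 154 and 155 CPM. Cox4i1, the ubiquitous form of the largest nuclear subunit, had 354 FPKM and stood at 284, 291, 298, 258, 256 and 258 CPM. Both were lowest in library 5, but not with plain total counts, where Cox4i1 was lowest in library 6 and Cox7c in library 1. Cox5b stood at 64.0, 66.7, 65.8, 64.2, 62.6 and 65.5 CPM, and its highest and lowest libraries could not be separated at this depth. Ndufa4, named after complex I but a subunit of complex IV, stood at 15.2, 17.5, 17.2, 22.1, 20.9 and 22.3 CPM, a range of 1.46-fold, with libraries 4, 5 and 6 above the rest. Cox7a2l, a factor that joins complexes III and IV into supercomplexes, had 259 FPKM and stood at 295, 308, 317, 287, 288 and 283 CPM. It ranged 1.12-fold, highest in library 3. Cox6b1, on the side facing cytochrome c, stood at 113, 109, 108, 95.6, 94.7 and 95.5 CPM, lower in libraries 4, 5 and 6. Cox8a, a short membrane subunit, stood at 131, 134, 127, 121, 119 and 127 CPM, and Cox6c, another, at 67.8, 70.0, 67.7, 67.6, 67.5 and 70.6 CPM with overlapping intervals of its highest and lowest libraries. Cox7a2, the widely expressed partner of Cox7a1, stood at 58.3, 70.8, 62.5, 58.0, 60.8 and 63.3 CPM, highest in library 2. Cox5a and Cox7b lay within 62.0 to 68.2 CPM and 56.7 to 64.0 CPM.

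The 4 isoforms held the widest ranges among nuclear subunits, at low counts. Cox6a2, known from heart and skeletal muscle, was counted 37, 61, 36, 179, 205 and 135 times and stood at 1.19, 1.76, 1.03, 4.72, 5.89 and 3.80 CPM. It ranged 5.46-fold, the widest of all genes here past the filter. Its 95% interval of 0.723 to 1.43 CPM in library 3 lay apart from 5.11 to 6.76 CPM in library 5, and each of libraries 4, 5 and 6 was above each of libraries 1, 2 and 3. Genes of the whole series also differed more often across this division than within it. Its widely expressed counterpart Cox6a1 stood at 51.1, 48.9, 49.96, 52.4, 54.7 and 57.2 CPM, a range of 1.17-fold. Cox6b2, known from testis, stood at 7.53, 9.63, 7.77, 10.02, 10.98 and 11.7 CPM and ranged 1.55-fold. Cox4i2, a form known from lung and low oxygen, stood at 3.48, 3.09, 4.39, 3.51, 2.62 and 3.21 CPM and ranged 1.66-fold, highest in library 3 and lowest in library 5. Cox7a1, of heart and muscle, stood at 1.09, 1.65, 1.35, 1.66, 1.84 and 1.12 CPM, and the intervals of its highest and lowest libraries overlapped. Per length, Cox4i2 had 4.57 FPKM where Cox4i1 had 354, and Cox6a2 had 4.26 where Cox6a1 had 96.4. Of the defining genes of striated muscle and brown fat, Ckm alone was listed, with at most 0.145 CPM. The source of the isoform reads was not tested.

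Complex V, the ATP synthase, had 17 nuclear genes, with the highest median level per length of the 5 complexes, 112 FPKM, against 89.3 for complex IV, 60.9 for III, 47.9 for II and 37.5 for I. Genes within a complex overlapped widely between complexes, so this order is one of medians. Of the 17, 0 ranged 1.5-fold, where 27.6% of all genes and 13.5% of those averaging 10 CPM or more did. With plain total counts it was 1, where 30.8% of all genes did. Atp5b, the catalytic beta subunit, led with 322 FPKM and stood at 566, 573, 572, 629.5, 631 and 663 CPM. Atp5a1, its alpha partner, stood at 437, 454, 452, 450.1, 457 and 464 CPM and ranged 1.06-fold. Atp5d, the delta subunit of the shaft, stood at 270.5, 269, 265, 203, 198 and 211 CPM. These genes had unlike shapes, with Atp5b highest in library 6, Atp5d highest in library 1, and Atp5a1 nearly level. Atp5g1, which with Atp5g2 and Atp5g3 encodes the identical c subunit of the rotor ring, had the widest range, 1.48-fold, at 22.3, 21.2, 21.9, 28.8, 29.7 and 31.6 CPM. It was the least abundant of the 3, at 25.8 FPKM beside 217 for Atp5g2 and 75.4 for Atp5g3. Atp5g2 stood at 145, 151, 141, 136, 141 and 133 CPM and Atp5g3 at 101, 104, 99.0, 112, 110.1 and 107 CPM. Per length, Atp5g2 was the highest of the 3 and Atp5g1 the lowest in every library. The gamma shaft gene Atp5c1 stood at 211, 211, 209, 198, 196 and 199.6 CPM, and Atp5e, the smallest part of the shaft, at 86.7, 87.8, 87.1, 76.3, 79.2 and 79.0 CPM, both lower in libraries 4, 5 and 6, though for Atp5c1 not with plain total counts. The stalk genes Atp5pb, Atp5o, Atp5h and Atp5j lay within 165 to 178 CPM, 92.7 to 102 CPM, 71.0 to 83.2 CPM and 49.7 to 56.4 CPM. Of the membrane subunits, Atp5l stood at 91.0, 88.0, 82.3, 77.1, 77.8 and 74.5 CPM, highest in library 1, while Atp5k and Atp5md had overlapping intervals of their highest and lowest libraries. Atpif1, the inhibitor of the synthase, carries a name outside the rule and stood at 28.8, 30.1, 30.9, 31.3, 31.7 and 31.6 CPM.

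Assembly factors of complex I, which build it and are not part of the finished enzyme, were scarce, at 0.983 to 11.7 FPKM. Of the 8, 5 ranged 1.5-fold or more, where 27.6% of all genes past the filter did, and the median range was 1.52-fold, beside 1.29-fold for all genes. Low genes ranged more widely in general. Of all 11516 genes 3174 reached 1.5-fold, but of the 8371 averaging 10 CPM or more only 1127 did, or 13.5%. Most of the 3174 thus averaged less than 10 CPM, though such genes were the smaller part of the 11516. Of the 5 factors, Ndufaf3, Ndufaf5, Ndufaf6 and Ndufaf8 averaged below 10 CPM, as did Ndufaf2, which ranged less. The part of the low level in the ranges of these factors was not tested. Ndufaf1, an early factor of membrane arm assembly and the most abundant per length, stood at 13.9, 15.5, 16.6, 18.9, 18.8 and 18.2 CPM. Ndufaf4 stood at 9.82, 9.39, 9.01, 12.1, 11.9 and 13.8 CPM and Ndufaf5, which modifies a core subunit, at 5.31, 4.91, 5.45, 6.14, 6.58 and 7.48 CPM. Library 6 was highest for both and for 4 of the 8, beside 21.2% of all genes. Ndufaf6 stood at 3.03, 2.86, 4.02, 4.48, 4.40 and 5.005 CPM, a range of 1.73-fold. Ndufaf8, with the widest range, 1.81-fold, stood at 3.80, 4.25, 2.84, 5.01, 4.23 and 5.17 CPM, lowest in library 3. Ndufaf2 and Ndufaf7 lay within 4.76 to 6.96 CPM and 8.30 to 11.2 CPM. Ndufaf3 went another way, with 4.54, 5.23, 5.39, 4.85, 3.48 and 4.86 CPM and library 5 lowest. At these counts, from 94 to 717 reads per gene and library, the intervals of the highest and lowest libraries were apart for all 8, as they were for 85% of all genes. Summed, they gave 53.5, 58.2, 59.1, 67.9, 67.5 and 71.5 CPM.

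**Figure D4:**
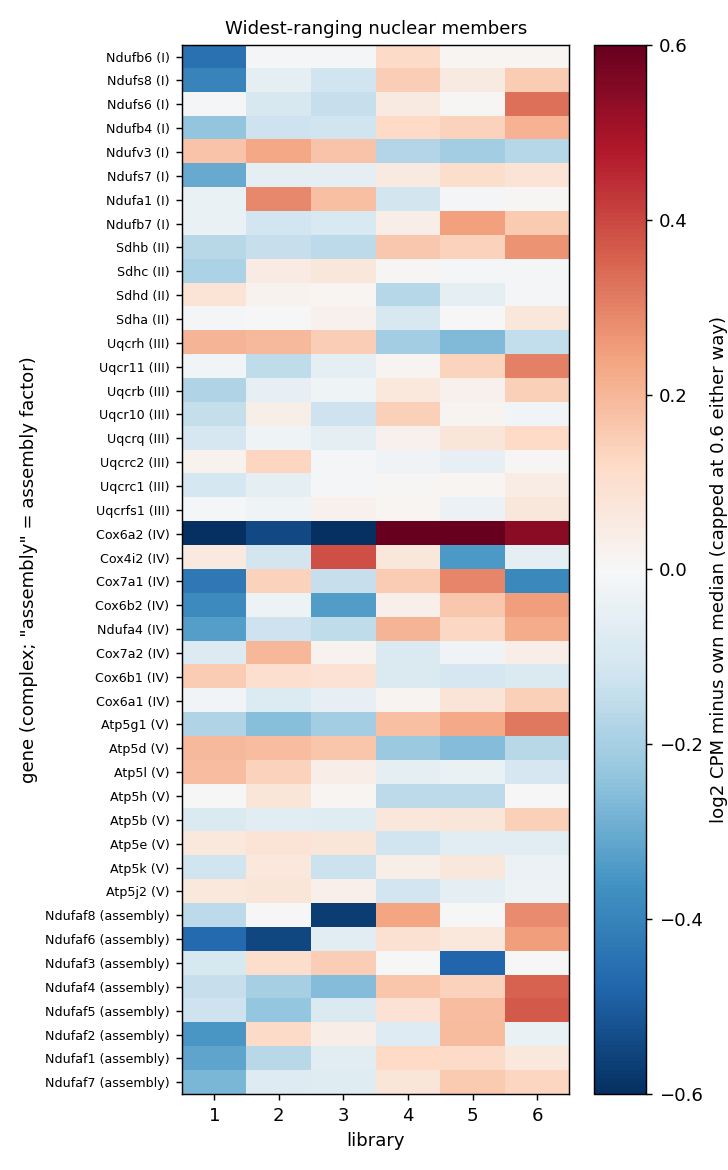
Deviation of each nuclear gene from its own median over libraries 1 to 6, in log2 CPM, for the 8 widest-ranging genes of each complex and the 8 assembly factors, or all where there are fewer. Colours are capped at 0.6 either way. Uqcrh, Atp5d and Ndufv3 run from red to blue, whereas Sdhb, Ndufa4, Atp5g1 and Cox6a2 run from blue to red.

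Of the 5 copies, only Ndufab1-ps, a pseudogene of the acyl carrier subunit, passed the filter, at 1.16, 1.30, 1.35, 1.71, 1.38 and 2.11 CPM. Its parent Ndufab1 stood at 27.6, 26.6, 29.6, 31.4, 32.7 and 32.2 CPM, and reads of either may be counted for the other. Ndufb4b, Ndufb4c and Ndufs6b reached at most 0.590, 0.257 and 0.647 CPM in any library. Ndufa4l2, a paralogue of Ndufa4 known to be induced by low oxygen, had 0, 0, 1, 1, 1 and 2 reads, at most 0.0562 CPM, and no range is given for it at these counts.

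Promoters of the nuclear subunit genes were available for 68 of 82, as RefSeq sequences of the assembly GRCm38.p6 from 250 bases before to 50 bases after a start. The factors NRF1, GABPA, YY1 and ERRA are known regulators of respiratory genes. The 10 letters of NRF1 given in capitals for Ndufa11 below occurred on either strand in 5 of 68, or 7.35%, against 2.46% of genes past the expression filter that had a promoter. YY1 letters AAGATGGCG occurred in 7 of 68, or 10.3%, against 3.86% of genes, and ERRA letters TCAAGGTCA in 2 of 68, or 2.94%, against 0.327% of genes. GABPA letters CCGGAAG occurred in 17 of 68, or 25%, against 21.6% of genes, and the hypoxia letters ACGTG in 17 of 68, or 25%, against 30.4% of genes. ERRA was found in Sdhd and Atp5g3 and the YY1 letters in Ndufa9, Ndufc1, Ndufs4, Ndufs6, Ndufs7, Atp5j and Atp5j2. Each motif was searched on both strands and counted by itself, also where it overlapped another. A match is a string of letters, and no binding was measured. The last 100 bases before the start are shown for the most abundant nuclear gene per length, Uqcrh, and for 1 gene with NRF1 and 1 with both YY1 and GABPA letters, with matches in capitals and 5′ to 3′ along the gene. For Atp5j, which has more than 1 listed start, the start with matches is shown.
Uqcrh, chr4:116075071-116075170, minus strand: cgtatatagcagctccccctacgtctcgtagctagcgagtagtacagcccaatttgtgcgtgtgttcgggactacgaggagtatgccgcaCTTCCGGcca
Ndufa11, chr17:56717662-56717761, plus strand: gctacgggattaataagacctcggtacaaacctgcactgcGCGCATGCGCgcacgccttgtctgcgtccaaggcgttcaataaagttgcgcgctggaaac
Atp5j, chr16:84834977-84835076, minus strand: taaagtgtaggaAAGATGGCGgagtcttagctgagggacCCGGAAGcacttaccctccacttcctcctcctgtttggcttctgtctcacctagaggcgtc
Uqcrh holds the GABPA letters close to its start, Ndufa11 the NRF1 letters, and Atp5j the YY1 letters followed by those of GABPA. Levels of the last 2 varied little, with Ndufa11 at 16.8, 16.1, 18.2, 14.5, 17.4 and 18.1 CPM and Atp5j at 52.0, 53.7, 55.0, 49.7, 56.3 and 56.4 CPM.

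The level of a group was taken as the median over its genes of log2 CPM minus each gene's own median. It describes the middle gene, and a level near 0 can hold genes that go opposite ways, as Uqcrh and Atp5d were lower and Sdhb and Atp5g1 higher in libraries 4, 5 and 6. For the 82 nuclear subunit genes it was -0.019, 0.013, 0.0036, -0.0059, -0.0013 and 0.02, and for all 11516 genes it had a range of 0.013. Complex I stood at -0.029, -0.0039, 0.0010, -0.011, 0.0087 and 0.041, complex II at -0.088, 0.01, 0.019, -0.043, -0.003 and 0.03 and complex III at -0.057, -0.022, -0.017, 0.014, 0.013 and 0.057. These 3 were lowest in library 1 and highest in library 6, except that with DESeq2 size factors complex I was lowest in library 4. Complex IV stood at -0.016, 0.043, 0.0093, 0.0078, -0.027 and 0.0081 and complex V at 0.0034, 0.043, 0.018, -0.053, 0.00072 and -0.032, both highest in library 2. With plain total counts library 1 was lowest for all 5, and library 6 highest for complex IV and library 5 for complex V. The assembly factors had -0.22, -0.12, -0.07, 0.089, 0.13 and 0.19, and the mitochondrially encoded genes -0.14, -0.29, -0.12, 0.15, 0.13 and 0.17. The mitochondrial range of 0.46 was 0.27 without library 2. The nuclear ranges were small enough for single libraries to set them. That of all nuclear subunits, 0.039, was 0.0026, 0.022, 0.0091, 0.02 and 0.0032 without library 1, 2, 4, 5 or 6, and 0.15 with plain total counts.

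The range of complex I, 0.069, was 0.017, 0.039, 0.044, 0.038 and 0.014 without library 1, 2, 3, 5 or 6. Complex II had 0.12, or 0.078, 0.054, 0.074 and 0.059 without library 1, 4, 5 or 6, and complex III 0.11, or 0.072 and 0.065 without library 1 or 6. Complex IV had 0.07, or 0.046, 0.041 and 0.034 without library 1, 2 or 5, and complex V 0.10, or 0.059, 0.033 and 0.048 without library 1, 2 or 4. With the mean over genes in place of the median, the range of complex IV was 0.19 and that of all nuclear subunits 0.10. Among the 103 genes past the filter, libraries 1 to 6 were highest for 11, 16, 13, 8, 17 and 38, where of all genes they were highest for 18.7%, 15.7%, 13.6%, 16.5%, 14.3% and 21.2%. They were lowest for 28, 24, 10, 16, 19 and 6 of the 103, where of all genes they were lowest for 22.6%, 16.4%, 13.2%, 18.2%, 14% and 15.6%. Library 6 was thus highest for 36.9% of the 103. Between single libraries, over the 30 ordered pairs, 0 to 12 of the 82 nuclear genes were at least 25% higher in 1 library than in another. Of all genes, 3.53% to 20.8% were, a share that includes low genes, which ranged more widely in general. The larger of these shares, 13.7% to 20.8%, were between libraries 1, 2 and 3 on 1 side and libraries 4, 5 and 6 on the other. Pairs on the same side had 3.53% to 6.25%. The nuclear share exceeded that of all genes in 1 of the 30 pairs, library 2 over library 1, with 6 of 82 where all genes had 5.44%. The largest nuclear count, 12, was for library 6 over library 1, where all genes had 20.8%. The largest mitochondrial count was 10 of 12, for library 5 over library 2, where all genes had 18.6%.

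**Figure D5:**
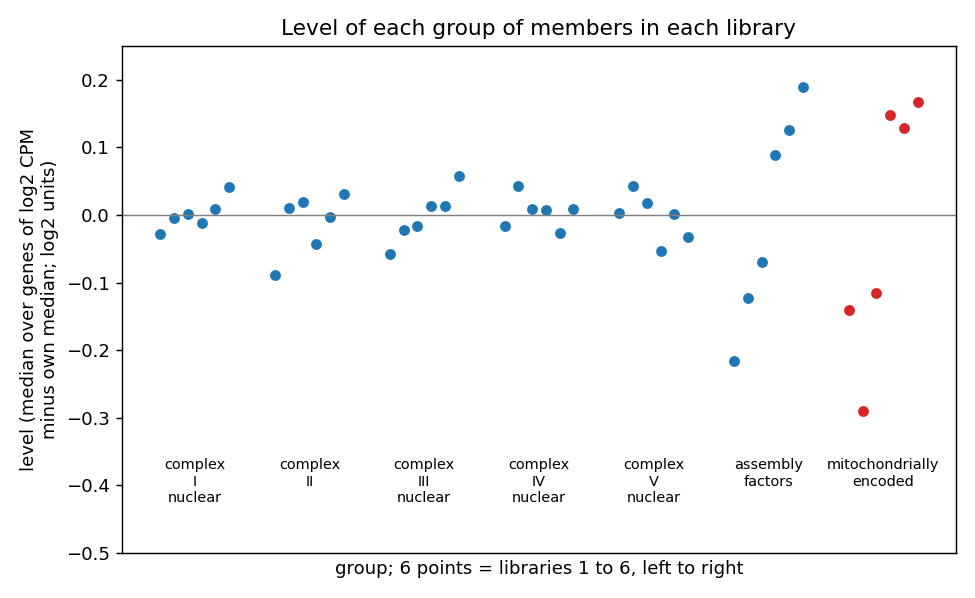
Level of each group of genes, the median of log2 CPM minus each gene's own median, with 6 points per group for libraries 1 to 6 from left to right. The 5 nuclear complexes lie close to 0, and the assembly factors and the mitochondrially encoded genes spread over 0.41 and 0.46.

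Other genes of the pathway were taken from lists outside the name rule. Of 15 genes for cytochrome c and coenzyme Q synthesis, 6 ranged 1.5-fold or more, or 40%, where 27.6% of all genes did. Without library 6 it was 3, where 24.8% of all genes did. Coq3, Coq4, Coq7, Coq8a and Pdss1, among the 6, were low, with medians of 2.29 to 8.74 CPM. Low genes ranged more widely in general. Of the 3174 genes that reached 1.5-fold, only 1127 were among the 8371 averaging 10 CPM or more, a share of 13.5% of the latter. Cyc1, the cytochrome c1 of complex III, was the most abundant per length, at 24.6 FPKM, and stood at 39.2, 39.5, 39.8, 39.5, 35.7 and 42.3 CPM. Coq8a, a kinase-like gene of coenzyme Q synthesis, ranged most, at 4.76, 4.28, 2.75, 1.77, 2.73 and 2.42 CPM. Library 1 was highest and library 4 lowest for Coq8a. Of 44 measured assembly factors outside the rule, 10 ranged 1.5-fold, or 22.7%, below the share of all genes, and 16 did with plain total counts, where 30.8% of all genes did. Higd1a, a gene induced by low oxygen, led them at 92.4 FPKM and stood at 203, 214, 208, 159.7, 152 and 165 CPM. Lyrm7, a factor for complex III, ranged 2.43-fold at 1.205 to 3.01 CPM. Of the genes that copy, transcribe and process mitochondrial DNA and RNA, 5 of 29 ranged 1.5-fold, or 17.2%, also below the 27.6% of all genes. Without library 6, 3 did, where 24.8% of all genes did.

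Hsd17b10, part of mitochondrial RNase P, was the most abundant of these per length, at 136 FPKM and 121, 129.99, 128, 121, 119 and 117 CPM. Tfb1m, which methylates mitochondrial ribosomal RNA, ranged most, 2.14-fold, at 3.99, 4.22, 4.27, 6.17, 7.27 and 8.60 CPM. Library 6 was highest for Tfb1m and library 1 lowest. Among 12 measured regulators of nuclear respiratory genes, 2 ranged 1.5-fold, or 16.7%, where 27.6% of all genes did. It was 1 without library 1 or library 5, where 24% and 25.5% of all genes did. Hif1a, the oxygen-sensitive factor, stood at 955, 899.6, 891, 669, 634 and 662 CPM, and Ppargc1b, a coactivator of mitochondrial genes, at 3.70, 3.44, 3.47, 6.78, 7.21 and 7.93 CPM. Hif1a was highest in library 1 and Ppargc1b highest in library 6. Of 5 genes for proton leak and ATP exchange, 1 ranged 1.5-fold, or 20%, where 27.6% of all genes did. It was the low carrier gene Slc25a27, at 3.96, 3.35, 5.45, 5.83, 6.64 and 6.44 CPM. Slc25a3, the phosphate carrier, led that list at 298 FPKM and stood at 513, 533, 535, 481, 489.5 and 501 CPM.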

How the data were processed

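Total RNA of 6 libraries was taken with TRIzol, per the labels' protocols, and sequenced. The tools in the submitters' processing notes are fastp, HISAT2, HTSeq, DESeq2 and R 3.2.0, with the build GRCm39; their settings, the annotation and the use of strand are not given in the sources at hand. The authors deposited, for each gene, raw read counts and FPKM values. Dividing count by FPKM and library total gave the same length for a gene in every library, so FPKM holds no separate evidence. Counts were scaled by TMM (edgeR 4.0.16 in R 4.3.3; factors 0.958 to 1.04); tables used Python 3.11.15, pandas 2.3.3, numpy 2.4.6 and scipy 1.17.1, and figures matplotlib 3.10.9. A prior count of 2 entered log2 CPM, and genes averaging 1 CPM or more were kept. The procedure was tested on simulated counts. Alternatives were DESeq2 1.42.0 size factors, plain totals, FPKM with a pseudocount of 0.1, a prior count of 0.5, no filter or one at 5 CPM, mitochondrial genes left out, means for medians, the copies left out, and each library left out.

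Members and lists were chosen with earlier results of these data known. Named genes are the 13 mitochondrial genes, the most abundant per length and the widest-ranging nuclear gene of each group, 12 textbook subunits, the isoforms, every gene past the filter ranging 1.5-fold, and the same 2 genes of each other list. All further genes were named after their values were seen, as was the 10 CPM level for background shares. Unmeasured or unlisted names of the fixed lists stayed out of counts.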

Additional observations from a re-analysis of the deposited data

Results flagged for a closer look

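In 5 of the 103 genes 1 library stood apart from the other 5, its gap to the next library a larger share of the whole spread than Dixon's 95% critical value for 6 values, which chance gives in about 1 of 20 sets of values. The count was 295 of all 11516 genes, or 2.56%. Ndufb6 was low in library 1, at 18.1 CPM, where the other 5 libraries lay between 24.4 and 26.7 CPM. Sdhc was low in library 1, at 49.0 CPM, below 55.6 to 58.7 CPM in the others. Ndufa3, an accessory subunit of complex I, was low in library 4, at 28.5 CPM, below 31.8 to 33.0 CPM in the others. Ndufc1 and Ndufs6, also of complex I, were high in library 6, at 13.3 and 22.0 CPM. The other 5 libraries had 10.5 to 11.5 CPM of Ndufc1 and 15.9 to 18.1 CPM of Ndufs6.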

How the results depend on the processing

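The 17 genes at 1.5-fold and 3 at 2-fold, of 103, became 22 and 4 of 103 with plain total counts or FPKM, where 30.8% and 11.2% of all genes did so with plain total counts and 28.4% and 8.54% with FPKM. With a minimum mean of 5 CPM they were 8 and 2 of 94, beside 17.3% and 4.69% of all genes. Without a minimum they were 22 and 7 of 108, beside 55% and 32.2%. With the mitochondrial genes left out they were 10 and 1 of 91, beside 27.7% and 10.6%. Leaving out each library gave 13 to 16 and 2 to 3. Plain totals and FPKM shift the median of all genes by up to 0.12 log2 units between libraries, and the values below are not relative to that shift. With plain total counts or, to the same 2 decimals unless given, FPKM, list ranges in log2 units became 0.15 for all nuclear subunits, 0.57 for mitochondrially encoded genes, 0.21 for complex I, 0.23 for complex II, 0.22 for complex III, 0.14 for complex IV, 0.15 for complex V, 0.51 for assembly factors of complex I, 0.37 for cytochrome c and coenzyme Q, 0.26 for other assembly factors, 0.22 for expression of mitochondrial DNA, 0.13 for regulators, 0.23 for proton leak and ATP exchange, while FPKM gave 0.50 for assembly factors of complex I and 0.35 for cytochrome c and coenzyme Q. For DESeq2 size factors, means and changed minima, only list ranges that moved by more than counting error are given. Unlisted ranges could also move, by less, as complex II did to 0.092 with DESeq2 size factors. With DESeq2 size factors, list ranges in log2 units became 0.44 for mitochondrially encoded genes, 0.048 for complex I, 0.088 for complex III, 0.11 for complex V. With the mean over genes in place of the median, list ranges in log2 units became 0.10 for all nuclear subunits, 0.54 for mitochondrially encoded genes, 0.11 for complex I, 0.19 for complex IV, 0.063 for complex V, 0.21 for other assembly factors, 0.17 for expression of mitochondrial DNA, 0.26 for proton leak and ATP exchange. With a minimum mean of 5 CPM, list ranges in log2 units became 0.44 for mitochondrially encoded genes, 0.10 for other assembly factors. Without a minimum, list ranges in log2 units became 0.12 for regulators. Leaving out each library in turn gave ranges of 0.0026 to 0.034 (from 0.039) for all nuclear subunits, 0.27 to 0.50 (from 0.46) for mitochondrially encoded genes, 0.29 to 0.42 (from 0.41) for assembly factors of complex I, 0.14 to 0.20 (from 0.21) for cytochrome c and coenzyme Q, 0.057 to 0.14 (from 0.13) for other assembly factors, 0.076 to 0.14 (from 0.12) for expression of mitochondrial DNA, 0.016 to 0.078 (from 0.051) for regulators, 0.059 to 0.14 (from 0.13) for proton leak and ATP exchange, 0.014 to 0.058 (from 0.069) for complex I, 0.054 to 0.12 (from 0.12) for complex II, 0.065 to 0.12 (from 0.11) for complex III, 0.034 to 0.068 (from 0.07) for complex IV, 0.033 to 0.076 (from 0.10) for complex V. Of the 44 named genes, the range of 19 moved by more than counting error with plain total counts or FPKM, of 2 with DESeq2 size factors, of 0 with a prior count of 0.5, and of 3 to 11 when 1 library was left out. No paired analysis was possible because the labels put no library in a group. At this depth the 3 reads that a count of 0 allows stand for 0.0791 to 0.0966 CPM, and Ndufa4l2 in every library and Ndufb4c in library 6 had fewer.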
